A study of Mus musculus with 12 samples.

Results

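The 10 genes of the matrix metalloproteinase (MMP) family described here were followed in the mouse abdominal aorta: Mmp2, Mmp3, Mmp8, Mmp9, Mmp12, Mmp13, Mmp14, Mmp15, Mmp19 and Mmp25. They were taken by symbol from a table of 55092 features, and all 10 were found and passed the filter on low values. Messenger RNA of 12 male mice was sequenced, with 1 library per aorta and 3 mice in each of 4 groups. CCN2fl/fl mice carry floxed Ccn2 alleles without Cre, and CCN2SMCΔ mice carry the same alleles with Myh11-Cre-ERT2, a tamoxifen-activated recombinase under a smooth muscle promoter. Every mouse, control or deleted, was given 5 doses of tamoxifen from 8 weeks of age and, after a washout period, a mini-osmotic pump for 7 days. The pump delivered saline to CCN2fl/fl mice (CFS) and CCN2SMCΔ mice (CSS), and Ang II at 500 ng/kg/min to CCN2fl/fl mice (CFA) and CCN2SMCΔ mice (CSA). Cre is driven in smooth muscle cells, so Ccn2 of the other cells of the wall stays intact, and the floxed controls lack the Cre transgene itself.

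MMPs are zinc-dependent endopeptidases that cut collagens, elastin, fibronectin and other proteins of the extracellular matrix. They are made as inactive zymogens whose prodomain must be removed, and they are held in check by the tissue inhibitors of metalloproteinases (TIMPs). In the aortic wall, breakdown of elastic fibres and collagen by MMPs from smooth muscle cells, fibroblasts and infiltrating leukocytes is a known feature of aneurysm. The members fall into gelatinases (Mmp2, Mmp9), interstitial collagenases (Mmp8, Mmp13), a stromelysin (Mmp3), the macrophage metalloelastase (Mmp12), Mmp19, and enzymes fixed to the cell surface (Mmp14, Mmp15 and, through a lipid anchor, Mmp25). The values below measure mRNA, not enzyme or its activity.

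Of the 10 genes, 4, Mmp13, Mmp12, Mmp3 and Mmp8, lie in a single cluster on chromosome 9, from 7272514 to 7699585 on GRCm38 (GENCODE M21). These 427 kb hold 10 MMP genes, of which Mmp1a is annotated as a polymorphic pseudogene, and no protein-coding gene from outside the family. The others stand alone: Mmp2 on chromosome 8 from 92827291 to 92853420, Mmp15 on chromosome 8 from 95352268 to 95375080, Mmp9 on chromosome 2 from 164940780 to 164955850, Mmp14 on chromosome 14 from 54431612 to 54445364, Mmp19 on chromosome 10 from 128790910 to 128800824 and Mmp25 on chromosome 17 from 23628311 to 23645277. Many inducible MMP genes are known for a site of the transcription factor AP-1 and a TATA box close upstream of their start. The RefSeq promoter table (GRCm38.p6) holds 8 windows of 7 members, each with 250 bases before and 50 after the start. The letters TGANTCA, searched on both strands, were found in 3 of the 8 windows: those of Mmp13, Mmp3 and the second start of Mmp12. The same letters occur in 7.81% of all 32851 windows of that length. TATAAA, on either strand, was found in 4 of the 8 windows against 13.6% of all, before the start in Mmp13 and Mmp3, across it in Mmp8 and after it in Mmp12. AGGAAG, the core of a PEA3 site, was found on either strand in 6 of the 8 against 35.4%. A match is a run of letters and not a measured binding site. The 120 bases before the start of the 3 genes are shown because these genes differ widely in what follows, with TGANTCA and TATAAA in capitals. All 3 stretches are on the forward strand and end at the base before the start, at chr9:7272394-7272513 for Mmp13, chr9:7445702-7445821 for Mmp3 and chr9:7347254-7347373 for Mmp12, the last inside the Mmp12 gene as GENCODE annotates it.
Mmp13: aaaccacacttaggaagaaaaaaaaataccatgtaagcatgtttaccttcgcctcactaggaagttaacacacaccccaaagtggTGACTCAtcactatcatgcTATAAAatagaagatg
Mmp3: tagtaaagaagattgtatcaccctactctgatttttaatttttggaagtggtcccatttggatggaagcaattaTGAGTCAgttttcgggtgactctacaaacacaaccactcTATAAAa
Mmp12: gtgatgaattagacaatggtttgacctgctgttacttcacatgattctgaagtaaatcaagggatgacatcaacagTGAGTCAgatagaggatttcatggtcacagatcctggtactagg
The AP-1 letters begin 35 bases before the start in Mmp13, 46 in Mmp3 and 44 in Mmp12.

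What the enzymes share is the active site, in which 3 histidines hold the catalytic zinc. The 33 coding bases that span these histidines, from GENCODE M21 transcripts, are shown for the same 7 genes with the 3 histidine codons in capitals. Each stretch lies within 1 coding exon.
Mmp8: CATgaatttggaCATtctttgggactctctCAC
Mmp13: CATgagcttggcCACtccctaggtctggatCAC
Mmp3: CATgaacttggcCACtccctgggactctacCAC
Mmp12: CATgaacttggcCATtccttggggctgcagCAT
Mmp14: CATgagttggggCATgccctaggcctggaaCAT
Mmp15: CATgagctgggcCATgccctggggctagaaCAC
Mmp25: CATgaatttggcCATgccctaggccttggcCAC
They lie at chr9:7563086-7563118 (Mmp8), chr9:7276573-7276605 (Mmp13), chr9:7449775-7449807 (Mmp3), chr9:7352914-7352946 (Mmp12), chr14:54437627-54437659 (Mmp14), chr8:95368585-95368617 (Mmp15) and, on the reverse strand, chr17:23632843-23632875 (Mmp25). Any pair of them was identical at 20 to 27 of the 33 bases. Over whole transcripts, no stretch of 75 bases of Mmp2, Mmp8, Mmp9, Mmp13, Mmp14, Mmp15 or Mmp25 occurs in another annotated gene. For Mmp3, 3.76% of such stretches are shared with Mmp10, which was at or near 0 in all libraries, and for Mmp12 1.16% are shared with other genes. Mmp19 shares 28.3% of its exonic bases with Tmem198b and Gm47093, so its level is uncertain by an amount that was not measured.

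The libraries held 14558569 to 23107769 fragments, recovered from the deposited FPKM and the exon lengths. Ccn2 itself was 255 to 399 FPKM in CSA against 564 to 1105 in CFA (exact permutation test, two-sided p = 0.1, the smallest that 3 against 3 allow) and 436 to 640 in CSS against 480 to 1108 in CFS (p = 0.4). Ccn2 shares 23.2% of its exonic bases with Gm15270, so its level is uncertain by an amount that was not measured. CSA mouse 03, the shallowest library, stood apart: its distance to CSA mice 01 and 02 was 1.2 to 1.21 as a root mean square log2 difference, while these lay 0.505 apart. Smooth muscle markers, which define this tissue, summed to 7597 to 10114 FPKM in the saline groups, 5393 to 8245 in CFA and 788 to 933 in CSA. CFS mouse 68 and CSS mouse 55 carried skeletal muscle markers (145 and 225 summed FPKM, 2.46 to 4.51 elsewhere).

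In saline-infused CCN2fl/fl aortas the members spanned a wide range of levels in FPKM, a measure per transcript length. Mmp2 was the most abundant (93.5 ± 16.8, SD, n = 3), higher than 97.2% of the tested genes on average. It was followed by Mmp3 (56.3 ± 7.81) and Mmp14 (27.6 ± 5.15), each separate from the next in all 3 mice. The FPKM of Mmp14 are divided by 5960 exonic bases, while its longest coding transcript has 3238. Per coding transcript it would be higher and nearer to Mmp3. Mmp19 (5.17 ± 0.854) and Mmp9 (4.94 ± 0.735) overlapped each other and lay above Mmp15 (2.41 ± 0.622). Mmp13, Mmp12, Mmp25 and Mmp8 were at 0.12 FPKM or less on average, and the ranges of neighbours in that order overlapped. Thus 3 genes made up 92.1% to 94.0% of the summed FPKM of the 10.

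**Figure D1:**
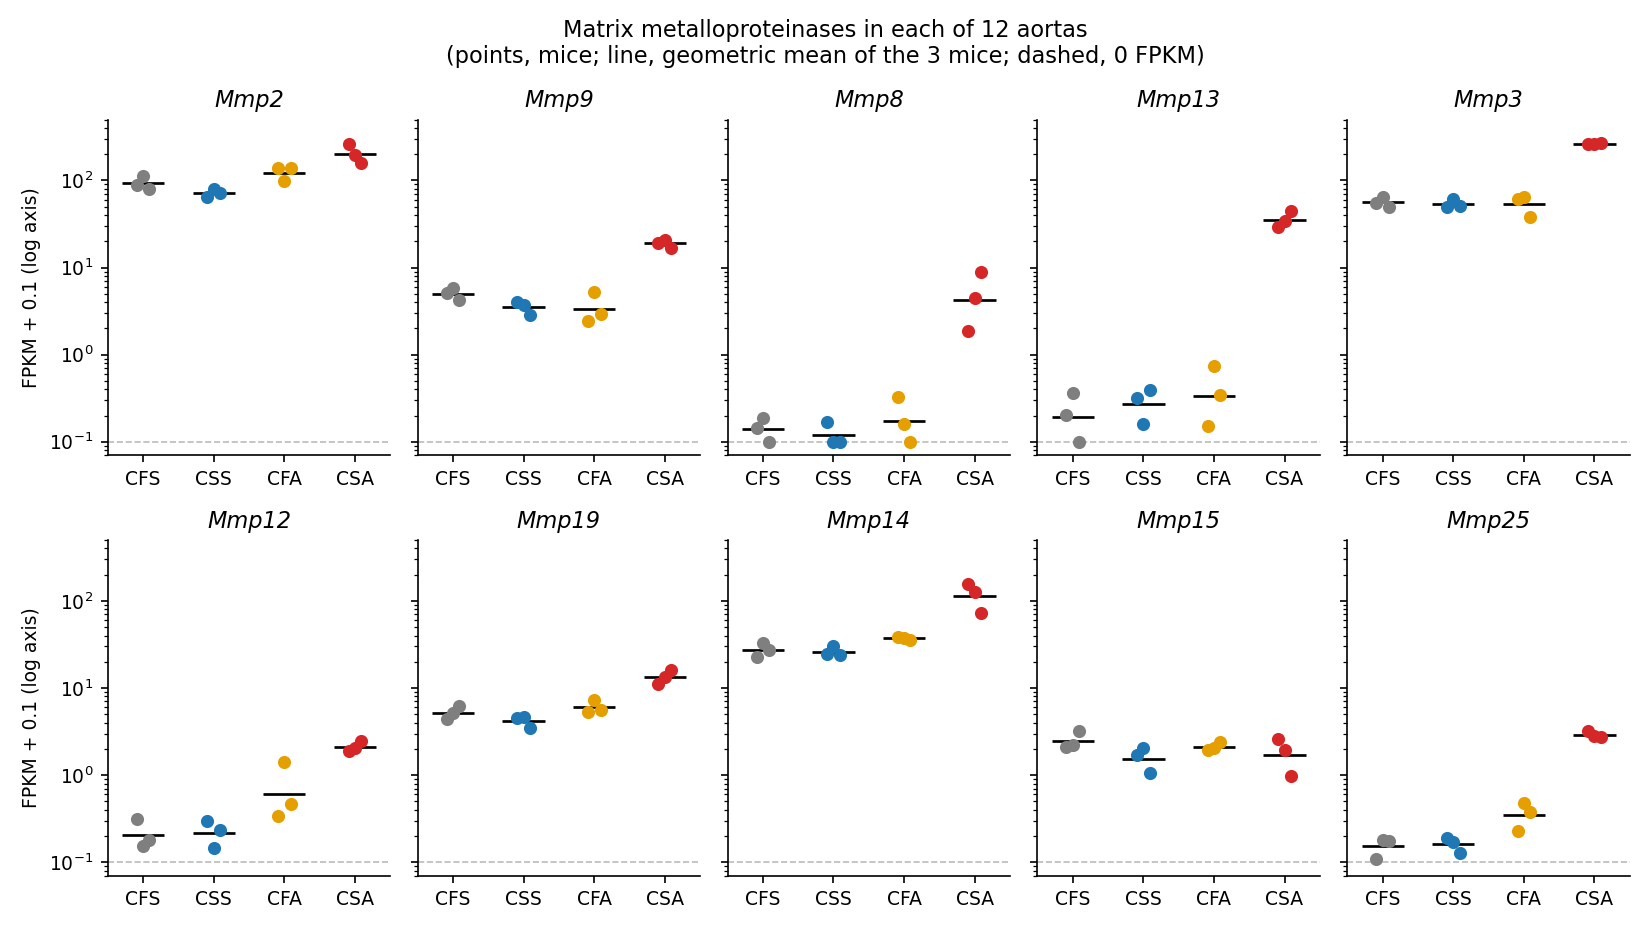
FPKM + 0.1 on a log axis for the 10 MMP genes in each of 12 aortas, with 1 point per mouse, a line at the geometric mean of the 3 mice of a group and a dashed line at 0 FPKM. The 3 CSA mice lie above the 3 CFA mice for every gene but Mmp15.

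Of the 2 comparisons with CFS, neither brought a member past the thresholds. A gene was called differentially expressed at an adjusted p under 0.05 (limma, Benjamini-Hochberg over 14676 tested genes) and an absolute log2 fold change over 1.5. Between the genotypes under saline, CSS against CFS, whose Ccn2 levels overlapped, 0 of 10 members were called, against 0.0136% of all genes tested, and 0 had an unadjusted p under 0.05, against 6.30%. The log2 fold changes ran from -0.67 (Mmp15) to 0.49 (Mmp13). For 3 members the CSS mice lay below all CFS mice, where 9.31% of all genes did so. These were Mmp2 by a narrow margin (65.0, 80.2 and 71 FPKM in CSS against 87.8, 112 and 80.3 in CFS), Mmp9 (3.91, 3.66 and 2.77 against 4.95, 5.66 and 4.19) and Mmp15 (1.60, 1.95 and 0.962 against 2.0, 2.10 and 3.13). Their 95% intervals all included 0, reaching from -0.84 to 0.11 for Mmp2, from -1.08 to 0.05 for Mmp9 and from -1.47 to 0.13 for Mmp15. The major stromelysin, Mmp3, differed by -0.06 (95% interval -0.51 to 0.38) and Mmp14 by -0.07 (-0.61 to 0.48).

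With Ang II alone, CFA against CFS, 0 of 10 members were called, against 0.0273% of all genes. Unadjusted p-values under 0.05 were found for 3 members (9.42% of all genes), and their adjusted p-values were 0.419 to 0.509 by limma. They were Mmp12 with a log2 fold change of 1.57, Mmp25 with 1.18 and Mmp9 with -0.59. In CFA, Mmp12 measured 0.235, 1.33 and 0.372 FPKM against 0.217, 0.0517 and 0.0801 in CFS, so that mouse 72 stood out while mouse 71 barely cleared the highest control. Mmp25 measured 0.130, 0.373 and 0.276 FPKM against 0.0102, 0.0806 and 0.0765. Both rest on few fragments: 298 against 46 in all for Mmp12, a ratio of 5.58 with a counting interval of 4.08 to 7.79, and 88 against 16 for Mmp25 (4.74, 2.76 to 8.65). For Mmp12, 204 of the 298 fragments came from CFA mouse 72, and the ratio was 2.65 without that mouse and 10.1 without CFS mouse 68. Mmp14 (38.6, 37.6 and 35.9 against 22.7, 33 and 27.0 FPKM) also lay above all CFS mice, which made 3 members with Mmp12 and Mmp25, where 9.44% of all genes did so. Mmp3 stayed at 61.7, 65.2 and 37.7 FPKM (log2 fold change -0.07, 95% interval -0.51 to 0.37).

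Under Ang II the genotypes were far apart. In CSA against CFA, 7 of 10 members were called higher (Mmp3, Mmp8, Mmp9, Mmp12, Mmp13, Mmp14 and Mmp25) and 0 lower, where 8.95% of all tested genes were called higher and 8.27% lower. Mmp2 and Mmp19 passed the adjusted p without the fold limit, which made 9 of 10 against 19.5% of all genes. In those 9 the CSA mice lay above all CFA mice, as for 23.4% of all genes. The members were chosen with earlier results of these data known, so these shares describe the list and not the MMP family. Of the 5 other MMP genes tested, 0 were called higher and 2 lower. Mmp8, Mmp13 and Mmp25 reached the filter of 1 FPKM only in CSA, and Mmp12 only in CSA and 1 CFA mouse, so their entry into the test already required a high CSA level. In bulk tissue, more cells of a type and more RNA per cell cannot be told apart. Left without CSA mouse 03, 6 members were called, Mmp12 being lost, and Mmp9 had 2.60, Mmp13 6.54, Mmp19 1.0 and Mmp25 3.13 on the log2 scale.

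**Figure D2:**
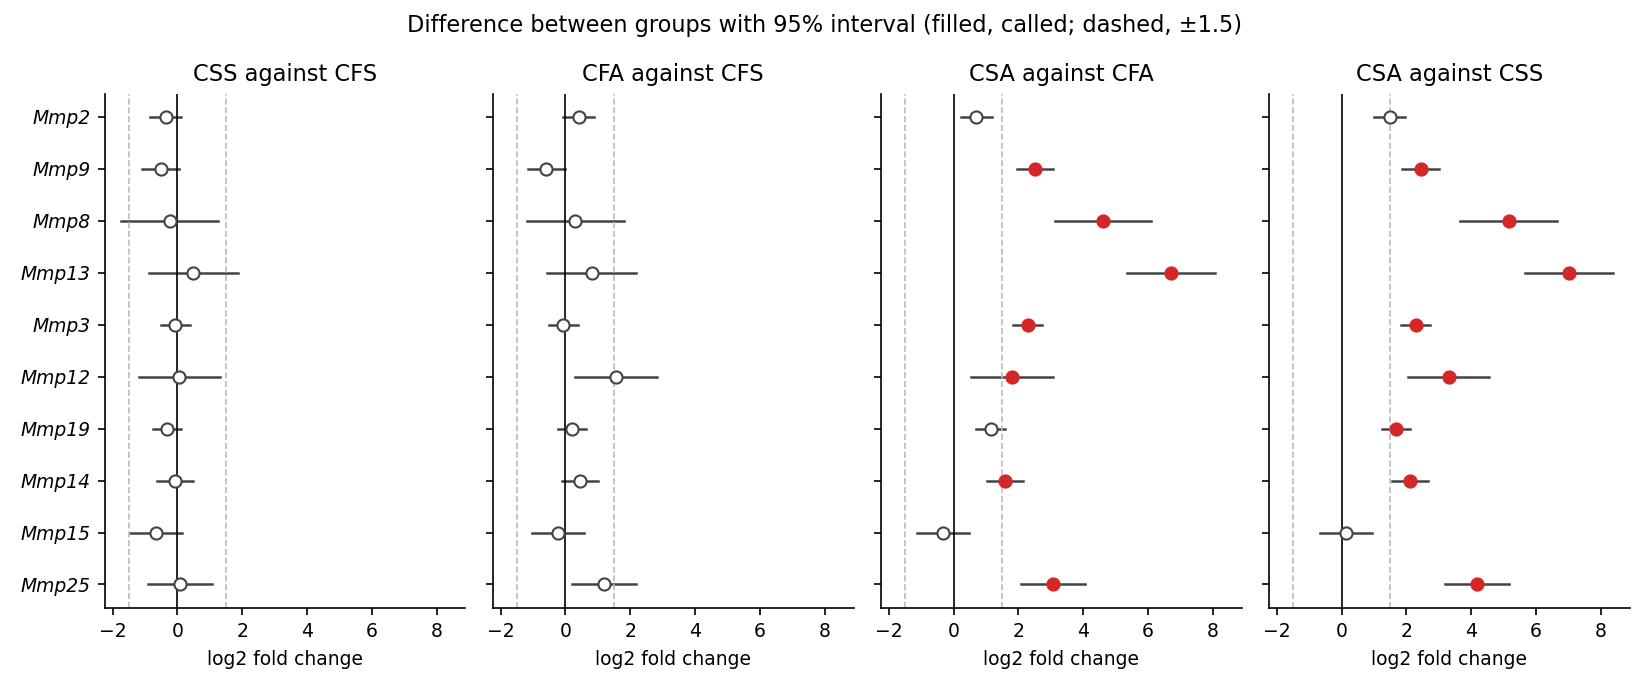
Log2 fold changes of the 10 MMP genes on the log2(FPKM + 0.1) scale with 95% intervals in 4 comparisons, filled where called and with dashed lines at 1.5 and -1.5. Filled points appear only in the 2 comparisons that contain CSA, 7 against CFA and 8 against CSS.

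The gelatinases changed to different degrees. Mmp2, which cuts denatured collagen and type IV collagen, measured 261, 196 and 157 FPKM in the CSA mice and 137, 97.9 and 139 in the CFA mice. The groups did not overlap, but the lowest CSA mouse was close to the highest CFA mouse. The log2 fold change was 0.70 (standard error, SE, 0.21, adjusted p = 0.0231 by limma), short of the fold limit. Leaving out each mouse in turn gave 0.51 to 0.88, with adjusted p-values of 0.00508 to 0.0871, over 0.05 without CFA mouse 72 or CSA mouse 01. With only CSA and CFA fitted the adjusted p was 0.0907. Mmp9, the gelatinase of neutrophil granules and macrophages, rose from 2.33, 5.09 and 2.80 FPKM in CFA to 19.2, 20.8 and 16.9 in CSA. The lowest CSA mouse was thus over 3 times the highest CFA mouse, and the fit gave 2.52 (SE 0.26, adjusted p = 2.42e-05).

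Both collagenases, which open the triple helix of fibrillar collagen, went from near absence to a clear signal. Mmp13 measured 29.1, 33.9 and 44.2 FPKM in CSA and 0.0515, 0.635 and 0.247 in CFA, where mouse 72 was the highest of all 9 mice outside CSA. Its log2 fold change of 6.71 (SE 0.62, adjusted p = 1.33e-05) corresponds to 104-fold on the log2(FPKM + 0.1) scale, and was 4.81 with a pseudocount of 1. Mmp8, the neutrophil collagenase, measured 1.79, 4.41 and 8.72 FPKM in CSA and 0.227, 0.0583 and 0 in CFA. The CSA mice spread widely, mouse 03 being the highest, and rested on 88, 227 and 324 fragments. The fit gave 4.61 (SE 0.68, adjusted p = 0.000283), 4.08 without mouse 03 and 2.27 with a pseudocount of 1. Counted in fragments, 639 in CSA stood against 15 in CFA, a depth-scaled ratio of 53.8 with a counting interval of 32.4 to 96.7. Of the 15, 12 came from CFA mouse 71, without which the ratio was 175 (59.6 to 851).

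Mmp3, a stromelysin that cuts proteoglycans, fibronectin and laminin and can activate other pro-MMPs, was close to even among the CSA mice. It measured 259, 259 and 266 FPKM in CSA against 61.7, 65.2 and 37.7 in CFA. The log2 fold change was 2.29 (SE 0.20, adjusted p = 9.51e-06), or 4.90-fold, and 2.28 without CSA mouse 03. In CSA it passed 99.2% of the tested genes on average.

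Mmp12, which cuts elastin, measured 1.77, 1.95 and 2.37 FPKM in CSA against 0.235, 1.33 and 0.372 in CFA, so that CFA mouse 72 came close to the CSA mice. The log2 fold change of 1.80 (SE 0.57, adjusted p = 0.0271) was the least firm of the 7 calls. Without CFA mouse 72 the log2 fold change was larger, and without CFA mouse 71 it was under the fold limit. Leaving out CFA mouse 71 raised the adjusted p to 0.106, and leaving out CFA mouse 74 raised it to 0.0873. Leaving out a CSA mouse raised the adjusted p to 0.0586 (mouse 02) or 0.0577 (mouse 03). It was 0.0561 when only CSA and CFA were fitted, and with a pseudocount of 1 the change was 0.93. Its FPKM are divided by 7237 exonic bases, while the longest coding transcript has 3607, so a level per coding transcript would be higher.

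Mmp19, found in vascular and myeloid cells, measured 10.9, 13.1 and 16.1 FPKM in CSA against 5.16, 7.24 and 5.54 in CFA. The groups were separate, with a log2 fold change of 1.14 (SE 0.20, adjusted p = 0.000844), short of the fold limit.

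The surface enzymes differed from each other. Mmp14, the membrane-type collagenase that also activates pro-Mmp2 together with Timp2, measured 155, 128 and 72.8 FPKM in CSA against 38.6, 37.6 and 35.9 in CFA. CSA mouse 03 was the lowest of its group. The log2 fold change was 1.60 (SE 0.25, adjusted p = 0.000429). Without CSA mouse 01 it was 1.37, under the fold limit, and without CSA mouse 03 it was 1.91. Mmp25, a lipid-anchored enzyme known from neutrophils, measured 3.14, 2.71 and 2.61 FPKM in CSA against 0.130, 0.373 and 0.276 in CFA, with a log2 fold change of 3.08 (SE 0.45, adjusted p = 0.000269), 1.60 with a pseudocount of 1. Mmp15, a second membrane-type enzyme, was the exception. It measured 2.51, 1.85 and 0.871 FPKM in CSA against 1.83, 1.97 and 2.28 in CFA, with CSA both the highest and the lowest. Its log2 fold change was -0.32 (95% interval -1.12 to 0.49, adjusted p = 0.520), and 0.091 without CSA mouse 03.

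As a result the order of the members differed in CSA. Mmp3 (261 ± 4.05 FPKM, SD, n = 3) led, its range overlapping that of Mmp2 (205 ± 52.5). Mmp14 (119 ± 42.1), Mmp13 (35.7 ± 7.69), Mmp9 (19.0 ± 1.97) and Mmp19 (13.4 ± 2.64) followed, each apart from the next. Below them Mmp8 (4.97 ± 3.5) overlapped Mmp25 (2.82 ± 0.281), and Mmp12 (2.03 ± 0.309) overlapped Mmp15 (1.74 ± 0.825). Mmp13 thus stood in the fourth place, from the seventh in CFS. In CFA the order was that of CFS for the first 6 genes, with Mmp3 (54.9 ± 15.0) overlapping Mmp14 (37.4 ± 1.36). Since Mmp14 would be higher per coding transcript, its place beside Mmp2 and Mmp3 in CSA and CFA depends on the length used.

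With Ang II in CCN2SMCΔ mice, CSA against CSS, 8 members were called higher, against 10.9% of all genes, and 0 lower, against 9.36%. These were the same 7 and Mmp19, whose log2 fold change was 1.67 (SE 0.20, adjusted p = 4.79e-05). This comparison shares the CSA mice with the preceding one, and Mmp8, Mmp12, Mmp13 and Mmp25 again entered the test through their CSA level. Mmp2, at 65.0, 80.2 and 71 FPKM in CSS, differed by 1.48 (adjusted p = 0.000211), just under the fold limit, and by 1.65 without CSA mouse 03. It made 9 of 10 by adjusted p alone, against 22.3% of all genes. Mmp3 was 2.29 higher, Mmp14 2.12, Mmp9 2.44, Mmp12 3.30, Mmp25 4.18 and Mmp13 7.02 on the log2 scale. Mmp12 was 1.43 higher and Mmp19 1.48 with a pseudocount of 1, both then short of the fold limit. Mmp8 had 3 fragments in the 3 CSS mice together and 639 in CSA, a ratio of 251 with a counting interval of 85.4 to 1220. All 3 came from CSS mouse 54, and without any other mouse the ratio was 158 to 336. For Mmp13 the fragments were 31 and 5314, a ratio of 202 (142 to 297). Mmp15 differed by 0.14 (95% interval -0.66 to 0.94).

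The difference of differences asks whether the genotype effect under Ang II was another than under saline. It was called higher for 6 members, against 7.89% of all genes: Mmp13 (log2 value 6.21, SE 0.88, adjusted p = 0.000558), Mmp8 (4.84, 0.96, 0.00373), Mmp9 (3.03, 0.36, 0.000230), Mmp25 (3.0, 0.63, 0.00540), Mmp3 (2.35, 0.28, 0.000237) and Mmp14 (1.66, 0.35, 0.00546). Mmp19 (1.47, adjusted p = 0.00305) and Mmp2 (1.07, adjusted p = 0.0241) passed the adjusted p alone, which made 8 of 10 against 12.8% of all genes. Mmp8, Mmp13 and Mmp25 passed the filter on low values only through CSA, so a positive value was favoured for them in advance. For Mmp2 the adjusted p reached 0.0617 with single mice left out, and it was over 0.05 without CFS mouse 69, CSS mouse 54, CSS mouse 56 or CFA mouse 72. For Mmp14 the value was 1.43 without CSA mouse 01. Mmp12 had 1.73 with an adjusted p of 0.144 and Mmp15 0.36 with 0.654. Without CFA mouse 72, which had the most Mmp12 outside CSA, Mmp12 had 2.35 with an adjusted p of 0.0295.

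Markers of leukocytes moved in parallel with several members. The 11 neutrophil markers, which include no MMP, summed to 544, 527 and 575 FPKM in the CSA mice and to 22.0, 28.1 and 11.3 in the CFA mice, and to 3.77 to 15.6 in the saline groups. Of the 9 tested, 9 were called higher in CSA against CFA, where 8.95% of all genes were, but apart from Csf3r, S100a8 and S100a9 they passed the filter only with the CSA mice. Among the defining markers, Mpo was at 0 in all mice outside CSA and at 0.362 to 1.64 FPKM in CSA, while Ly6g did not follow, with 0.680, 0 and 0 FPKM in CSA, 0.390, 0.10 and 0 in CFA and at most 0.0976 in the saline groups. The 10 macrophage markers summed to 2507, 2539 and 2368 FPKM in CSA, 380, 727 and 349 in CFA and 283 to 370 in the saline groups. Of these 10, 8 were called higher, none was at 0 throughout a group, and Mertk had a log2 fold change of -0.73 (adjusted p = 0.0185). In CFA, mouse 72 had the highest sum of both lists and the highest Mmp3, Mmp9, Mmp12, Mmp13, Mmp19 and Mmp25. Mmp8 and Mmp14 were highest in CFA mouse 71 and Mmp15 in CFA mouse 74, while Mmp2 was lowest in CFA mouse 72. The 5 T cell markers summed to 13 to 19.4 FPKM in CSA and 0.306 to 1.49 in CFA, and each reached the filter of 1 FPKM in CSA alone. The 7 fibroblast markers summed to 1088 to 1625 in CSA and 922 to 1029 in CFA with 0 called. By adjusted p alone 2 were higher and 3 lower, among them Lum (1.44) and Cd34 (-1.45), against 19.5% and 21.2% of all genes. The 7 smooth muscle markers and the 5 erythrocyte markers were all called lower, as were 3 of 6 endothelial and 2 of 5 adipocyte markers, against 8.27% of all genes. The part of these cells in the MMP levels was not tested.

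**Figure D3:**
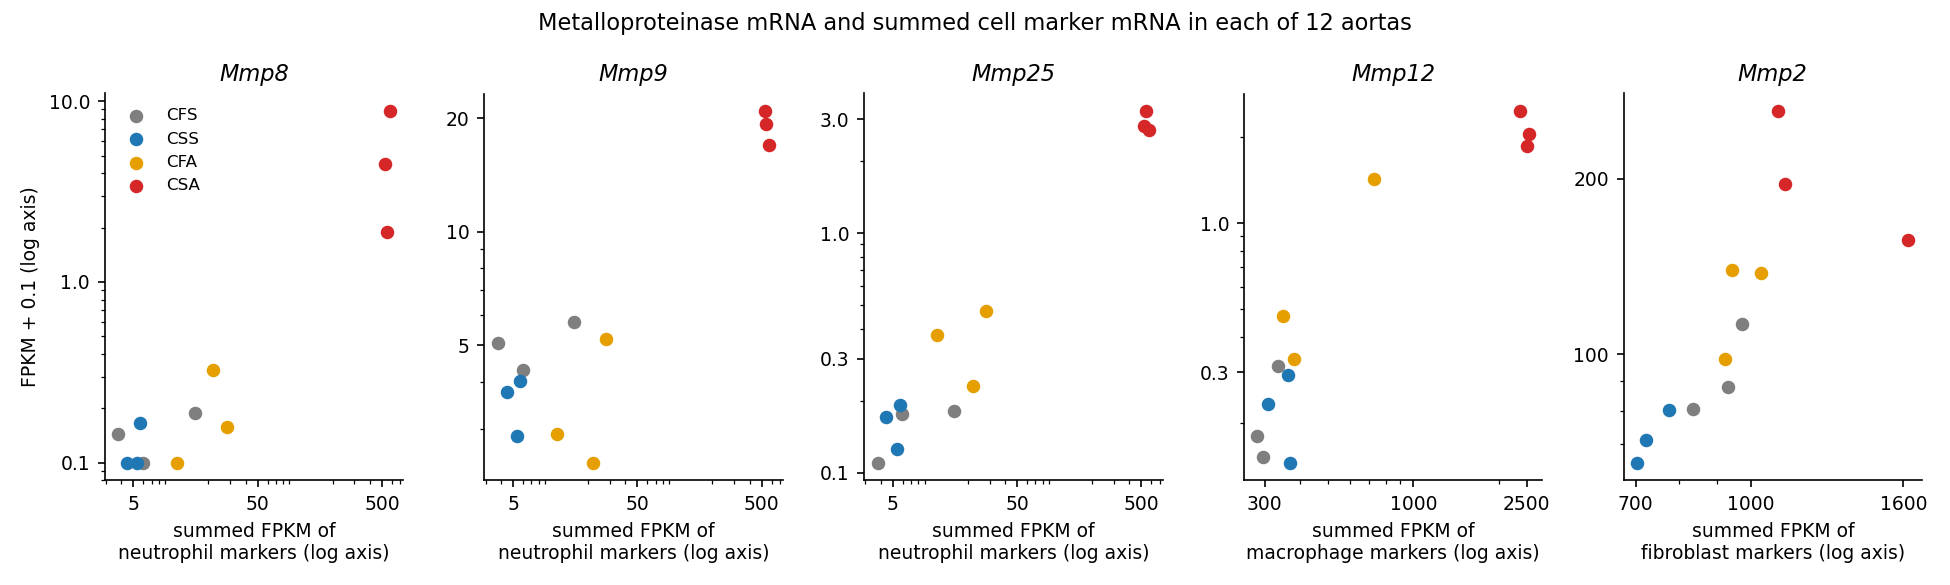
FPKM + 0.1 of 5 MMP genes against the summed FPKM of cell marker lists in each of 12 aortas, both axes logarithmic and 1 point per mouse coloured by group. The CSA mice form a separate cluster at the upper right for Mmp8, Mmp9, Mmp25 and Mmp12, CFA mouse 72 lies between the clusters for Mmp12, and for Mmp2 CSA mouse 03 lies farthest right on the fibroblast axis (1625).

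Of 13 other MMP genes, 5 were tested, and in CSA against CFA 0 were called higher and 2 lower, against 8.95% and 8.27% of all genes. Mmp17, a lipid-anchored MMP of smooth muscle, fell from 39.8, 35.3 and 29.7 FPKM in CFA to 3.88, 3.33 and 1.85 in CSA (log2 fold change -3.54, SE 0.24, adjusted p = 1.71e-06). It had been at 23.5 to 30.3 FPKM in the saline groups. Mmp28 fell from 7.55, 4.39 and 8.61 to 1.86, 2.0 and 0.488 FPKM (-2.32, adjusted p = 0.00140). CSA mouse 03 was the lowest of its group, and the fall of Mmp28 was smaller without it. Mmp16 differed by -1.48 (adjusted p = 0.00119), short of the fold limit, and Mmp11 (-0.62, adjusted p = 0.337) and Mmp23 (-0.27, adjusted p = 0.379) were not past either threshold. Mmp23 was among the more abundant genes of the family, at 57.7, 61.0 and 33 FPKM in CSA and 65.1, 61.1 and 51.3 in CFA. The median log2 fold change was -1.48 over these 5 and -0.04 over all tested genes. Inside the chromosome 9 cluster, Mmp1a, Mmp1b, Mmp7 and Mmp20 were at 0 in all 12 libraries, which allows up to 3 fragments in each. Mmp10, the neighbour most like Mmp3 in sequence, reached 0.0548 FPKM at most. Mmp27 lay at 0.669 to 1.3 FPKM in CSA and 0.229 to 0.761 in the other groups, too low to be tested. The cluster therefore held genes with strong, weak and no signal side by side in the same tissue.

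The inhibitors moved in opposite directions. Timp1, the inducible inhibitor, rose from 29.9, 110 and 19.4 FPKM in CFA to 494, 677 and 260 in CSA (log2 fold change 3.47, SE 0.55, adjusted p = 0.000461). CFA mouse 72 again stood out of its group, and the log2 fold change of Timp1 was larger without it. Timp4 fell from 7.66, 6.76 and 12.5 to 0.535, 0.888 and 0.299 FPKM (-3.80, SE 0.31, adjusted p = 6.37e-06). Reck, a membrane-anchored inhibitor of several MMPs, fell from 38.4, 27.7 and 31.8 to 8.80, 9.11 and 8.98 (-1.84, adjusted p = 2.87e-06). Timp3, the matrix-bound inhibitor, differed by -1.46 (adjusted p = 9.48e-06), just under the fold limit and past it without CSA mouse 03 (-1.55). It shares 21.3% of its exonic bases with Syn3, so its level is uncertain by an amount that was not measured. Timp2, the most abundant inhibitor outside CSA, was 496, 433 and 433 FPKM in CFA and 305, 270 and 270 in CSA (-0.69, adjusted p = 0.000630). A2m, a plasma inhibitor made mostly in liver, was at 0.344 FPKM or less and was not tested. So of the 5 inhibitors tested 1 was called higher and 2 lower, against 8.95% and 8.27% of all genes, and by adjusted p alone 4 were lower, against 21.2%.

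**Figure D4:**
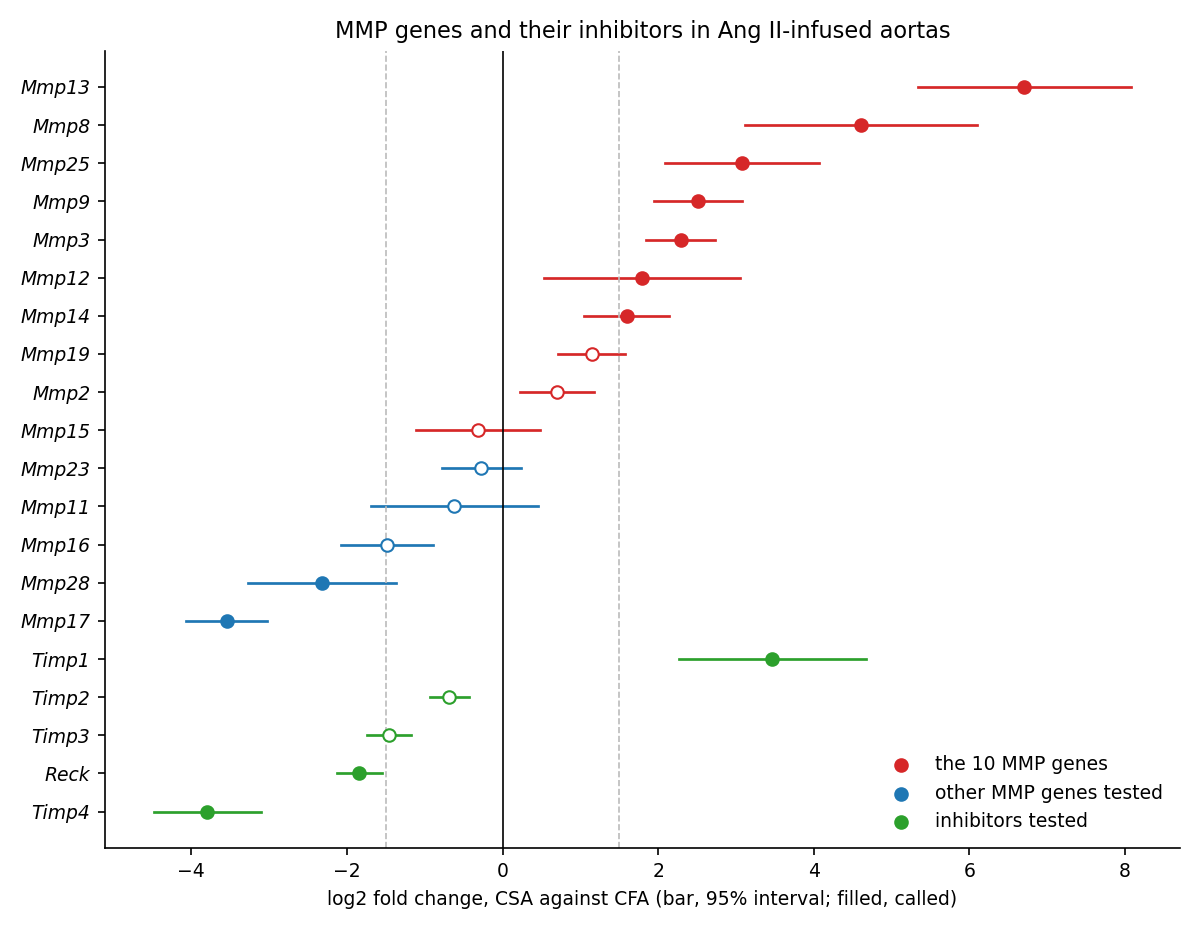
Log2 fold changes with 95% intervals in CSA against CFA for the 10 MMP genes, the 5 other MMP genes tested and the 5 inhibitors tested, filled where called and with dashed lines at 1.5 and -1.5. The 10 genes reach from Mmp13 (6.71) to Mmp15 (-0.32), the other MMP genes all lie below 0, and Timp1 (3.47) is the only inhibitor above 0.

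Summed over genes, the 10 MMPs amounted to 744, 662 and 588 FPKM in the CSA mice and 217 to 248 in CFA, 149 to 182 in CSS and 170 to 224 in CFS. The 4 TIMPs together amounted to 844, 989 and 583 FPKM in CSA and 591 to 668 in CFA, so that the lowest CSA mouse, 03, lay below all CFA mice. The ratio of the MMP sum to the TIMP sum was 0.669 to 1.01 in CSA, 0.325 to 0.380 in CFA, 0.219 to 0.279 in CSS and 0.295 to 0.351 in CFS. The share of Timp1 in the TIMP sum was 1.88% to 2.51% in CFS, 2.81% to 4.36% in CSS, 3.28% to 16.4% in CFA and 44.6% to 68.5% in CSA. The MMP sum covers the 10 members alone and leaves out Mmp17 and Mmp23, which were not higher in CSA, so the ratio is not that of the whole family. These sums count transcripts per length and say nothing of protein.

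**Figure D5:**
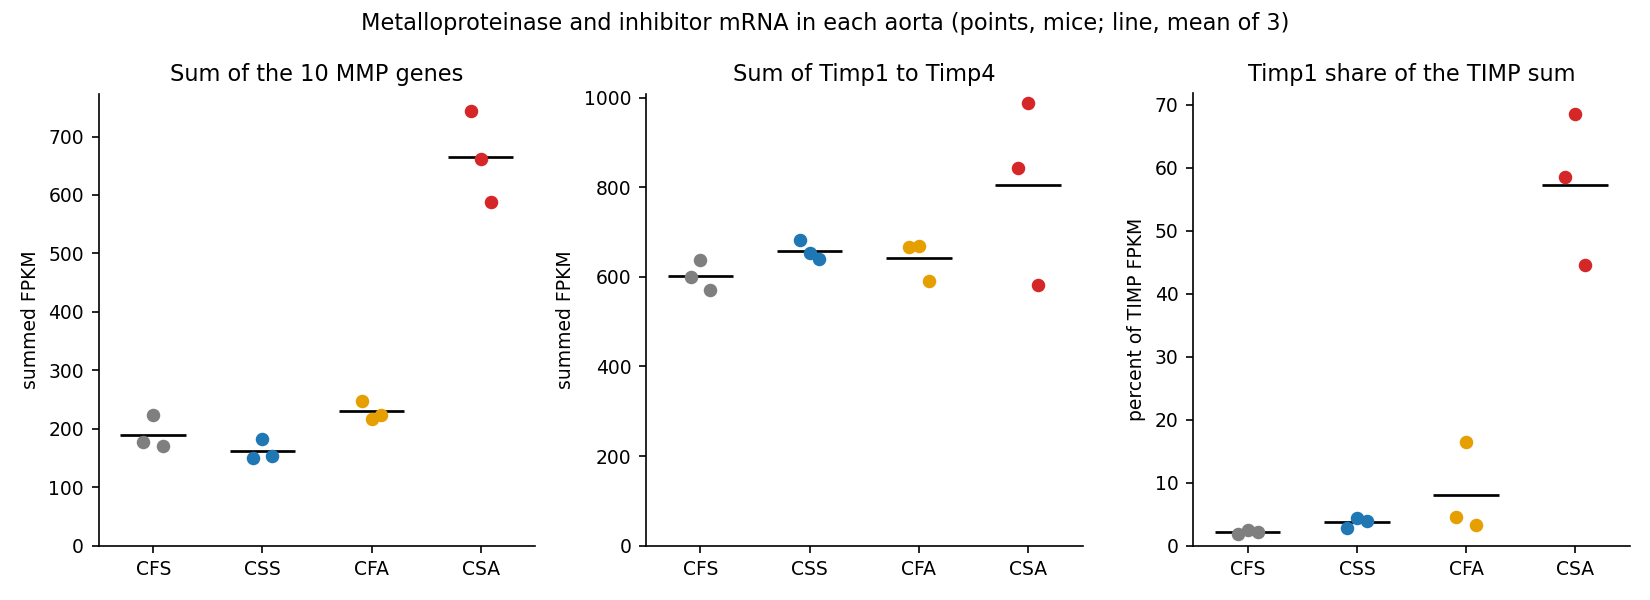
Summed FPKM of the 10 MMP genes, summed FPKM of Timp1 to Timp4 and the percent of the latter due to Timp1, with 1 point per mouse and a line at the mean of each group. The MMP sums of the CSA mice (588 to 744) lie above all others, while their TIMP sums (583 to 989) overlap the other groups.

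Of 10 genes of the proprotein convertases, which cut MMP prodomains, and of the plasminogen system, 9 were tested, 1 was called higher and 2 lower in CSA against CFA, against 8.95% and 8.27% of all genes. Plaur, the urokinase receptor, rose from 6.19, 11.8 and 3.88 to 29.7, 25.9 and 17.6 FPKM (log2 fold change 1.84, adjusted p = 0.000985, and 1.47 without CFA mouse 74). Pcsk6 fell from 12.9, 14.7 and 8.72 to 3.22, 1.95 and 1.90 FPKM (-2.32, adjusted p = 1.51e-05). Serpine2, an inhibitor of urokinase and thrombin, fell from 123, 109 and 77.2 to 33.2, 29.8 and 39.6 FPKM (-1.57, adjusted p = 4.95e-05). Serpine2 was under the fold limit when CFA mouse 71 (-1.43) or CSA mouse 02 (-1.48) was left out or when libraries were scaled to equal FPKM sums (-1.49). Furin, which cuts pro-Mmp14, measured 16.6, 18.5 and 16.5 FPKM in CFA and 8.57 to 27.7 in CSA, a log2 fold change with a 95% interval of -0.72 to 0.72. Cd44, a hyaluronan receptor that docks Mmp9 and Mmp14 at the cell surface, rose from 6.71, 12.5 and 5.19 to 31.9, 28.2 and 38.8 FPKM (2.09, adjusted p = 0.000107), the 1 of 3 genes of induction and clearance that was called.

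Of the 9 substrates of the vessel wall 0 were called in CSA against CFA. By adjusted p alone 3 were higher, Col1a1 (0.96), Col1a2 (0.79) and Col3a1 (0.76), and 3 lower, Col4a1 (-0.88), Col4a2 (-1.06) and Fn1 (-0.97), against 19.5% and 21.2% of all genes. Of the 7 AP-1 subunits, whose letters stand in the Mmp13, Mmp3 and Mmp12 windows above, 0 were called higher and 2 lower, against 8.95% and 8.27% of all genes. Fosb measured 0.899, 0.861 and 0.502 FPKM in CSA against 3.52, 4.42 and 3.82 in CFA (-2.27, adjusted p = 0.00271, and -1.49 with a pseudocount of 1). Jund measured 53.1, 48.9 and 8.41 against 98.8, 96.8 and 92.8 (-1.78, adjusted p = 0.0252). The call on Jund rested on CSA mouse 03, without which it was -0.91, and its adjusted p was 0.0584 to 0.0648 without 1 of the CFA mice. Junb, which was not called, measured 117, 88.9 and 10.9 FPKM in CSA against 28.5, 33.6 and 21.8 in CFA (0.81). CSA mice 01 and 02 thus lay above all CFA mice and CSA mouse 03 below them.

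The genes most like each member over the 12 libraries were found by the Pearson correlation of log2(FPKM + 0.1). Since CSA stood apart from the other groups, the order mostly reflects that difference, and r is a description only. Mmp2 ran with the fibrillar collagens Col3a1 (r = 0.963) and Col1a1 (0.960), which were 1630 and 2823 FPKM on average in CSA and 961 and 1439 in CFA. Mmp12 ran with Bcl2a1d (0.980), a survival factor of leukocytes, and Spp1 (0.971), the secreted protein osteopontin, at 463 FPKM in CSA and 20.04 in CFA. Mmp15 ran with Col5a3 (0.940) and Agt (0.930), the precursor of angiotensin. The others were Ttc39c (0.992) and Rnf180 (0.991) for Mmp3, Prss46 (0.984) and Tpd52 (0.984) for Mmp8, Cyfip2 (0.971) and Susd6 (0.971) for Mmp9, Stx16 (0.991) and Clca3a2 (0.990) for Mmp13, Orai2 (0.990) and E2f2 (0.985) for Mmp14, Gda (0.983) and Anxa8 (0.975) for Mmp19, and Rnase6 (0.992) and Apobr (0.992) for Mmp25. By Spearman's rank correlation 1 of the 2 genes remained for Mmp2, Mmp12, Mmp15 and Mmp25 (Col3a1, Bcl2a1d, Col5a3 and Apobr) and 0 for the rest.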

How the data were processed

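RNA-Seq of abdominal aortas from 12 mice in 4 groups of 3 was analysed, with groups taken from the sample labels and 0 columns left unused. Values are FPKM as computed by the authors (fragments scaled by exon length and library size), 1 per gene and mouse. The submitters' processing notes name HISAT2 2.0.5, StringTie 1.3.3b, featureCounts 1.5.0-p3 and the build mm10. The study called genes by DEG-Seq, a count method that was not used here. Multiplied by GENCODE M21 exon lengths, 98.1% to 98.5% of low values (under 100 fragments) came out whole within 0.05, which gave the depths, and whether counting used strand is not given in the sources used here. The median-of-ratios size factor was 1.01 in all 12 libraries, so the deposited values were already scaled in this way.

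These were taken to log2(FPKM + 0.1) and modelled in limma 3.58.1 in R 4.3.3 (eBayes with trend and robust settings), 1 coefficient per group over all libraries, on the 14676 genes with at least 1 FPKM in at least 3 libraries. Benjamini-Hochberg adjustment covered these genes, and calls needed both an adjusted p below 0.05 and a log2 fold change beyond 1.5 in either direction. Fold changes on this scale understate the change of low genes. The script was tested on simulated data. Counting intervals of fragment ratios (95%, exact) cover counting error only. Ccn2 was compared by an exact permutation test. Python 3.11.15, pandas 2.3.3 and matplotlib 3.10.9 were used for tables and figures.

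The members and lists were chosen with earlier results of these data known. The text names all 10 members, every inhibitor, up to 3 called genes of each other list with the largest change, and the 2 genes most like each member. Other MMP genes, Furin, Junb, the substrates and single marker genes were named after their values were seen, and the motifs were chosen after the data were seen. Alternatives were a pseudocount of 1, no filter, a mean of at least 5 FPKM, median-of-ratios scaling, scaling to equal FPKM sums, eBayes in its plain form, array weights, adjusted p alone, a fit of only the groups compared, and leaving out each mouse. Median-of-ratios scaling could change almost nothing, since its size factors were equal in all libraries.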

Additional observations from a re-analysis of the deposited data

Results flagged for a closer look

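For 8 members the genotype difference under Ang II was another than under saline by the interaction term of the limma fit at an adjusted p under 0.05, as for 12.8% of all genes in that direction. On the log2 scale the difference was 6.21 for Mmp13, 4.84 for Mmp8, 3.03 for Mmp9, 3.0 for Mmp25, 2.35 for Mmp3, 1.66 for Mmp14, 1.47 for Mmp19 and 1.07 for Mmp2. Mmp8, Mmp13 and Mmp25 entered the test only through their CSA level, which favoured a positive value in advance. No member had an unadjusted p under 0.05 for genotype under saline. Mmp2 was past that adjusted p no longer without CFS mouse 69, CSS mouse 54, CSS mouse 56 or CFA mouse 72.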

How the results depend on the processing

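No paired analysis was possible because the 4 groups share no mouse numbers. Of the 21 alternatives, a mean of at least 5 FPKM left 6 members in the test and moved the number called to 4 in CSA against CFA and 5 in CSA against CSS, since the low members were no longer tested. Without single mice the number called was 6 to 7 in CSA against CFA, 8 to 9 in CSA against CSS, 6 to 8 for the interaction and 0 in both other comparisons. Over all genes, 2528 were called in CSA against CFA, and 1601 with a pseudocount of 1, 1095 with a mean of at least 5 FPKM and 5978 by adjusted p alone. Directions turned only among log2 fold changes that were not called, and the causes were not tested. With array weights Mmp15 had 0.071 in CSA against CFA, Mmp12 -0.032 in CSS against CFS and Mmp3 0.049 in CFA against CFS. Without single mice the ranges were -0.62 to 0.091 for Mmp15, -1.09 to 0.12 for Mmp11 and -0.43 to 0.010 for Mmp23 in CSA against CFA, and -0.17 to 0.55 for Mmp15 in CSA against CSS. In CSS against CFS they were -0.16 to 0.043 for Mmp3, -0.16 to 0.38 for Mmp12, -0.20 to 0.071 for Mmp14 and -0.15 to 0.25 for Mmp25. In CFA against CFS they were -0.21 to 0.18 for Mmp3 and -0.15 to 0.70 for Mmp8. Outside CSA, Mmp8, Mmp12, Mmp13 and Mmp25 rest on few fragments per mouse, and fragment ratios among those 3 groups moved with single mice, an alternative added after seeing the data.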
